A study of Mus musculus with 3 samples.

Results

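The Iroquois and Hand genes encode 8 transcription factors of the developing heart, namely Irx1, Irx2, Irx3, Irx4, Irx5, Irx6, Hand1 and Hand2. Their surroundings were searched for binding of TBX5, a T-box transcription factor of heart and forelimb. A peak was counted for a gene when its summit, the position of highest signal, lay in the gene's RefSeq body on mm10 or within 100 kb of either end. By this rule 21 of the 12436 deposited peaks belonged to these genes, 18 of them to the 6 Iroquois genes and 3 to the 2 Hand genes, and no peak was counted for more than 1 gene. Chromatin came from whole E14.5 embryonic hearts of CD-1 mice, which are an outbred stock. In chromatin immunoprecipitation and sequencing (ChIP-seq), 2 replicates from separate biological material, enriched with an anti-TBX5 antibody, were set against 1 input of chromatin taken before that step. The 2 ChIP samples were pooled before peaks were called, so no value below has a spread between replicates. In whole hearts, strong binding in few cells and weaker binding in many cannot be told apart.

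Iroquois proteins are homeobox factors of the TALE class, whose genes lie in the mouse genome as a pair of clusters, Irx1, Irx2 and Irx4 on chromosome 13 and Irx3, Irx5 and Irx6 on chromosome 8. Irx4 is known as a factor of ventricular identity, Irx3 for its part in the ventricular conduction system and Irx5 for the repolarisation gradient across the ventricular wall. Hand1 and Hand2 are basic helix-loop-helix factors that work as dimers. Hand1 is known for the left ventricle and Hand2 for the right ventricle and the outflow tract. H3K4me1 and H3K27ac are histone marks of enhancers and active elements, H3K4me3 marks promoters, and H3K27me3 marks Polycomb repression. Regions that carry both H3K4me3 and H3K27me3 are called bivalent and are known from genes of developmental regulators.

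The promoter sequence of Irx2 is shown because a peak overlapped part of it, and that of Hand2 because none did. RefSeq promoter sequences on GRCm38.p6, the assembly that mm10 names, matched 4 of the 8 genes (Irx2, Irx3, Irx4 and Hand2). Each runs from 250 bases before to 50 after the start. The Irx2 promoter lies at chr13:72628570-72628869 on the plus strand, and capitals mark its 82 bases inside the peak. The Hand2 promoter lies at chr8:57320733-57321032 on the plus strand and has no capitals, since no peak overlapped it. The third sequence, chr13:72628515-72628651 on the plus strand, covers 137 of the 179 bases of the Irx2 peak and was read from the entry of the divergent long non-coding RNA Gm20554. Its capitals mark the summit and 10 bases on each side where they are covered.
Irx2 promoter: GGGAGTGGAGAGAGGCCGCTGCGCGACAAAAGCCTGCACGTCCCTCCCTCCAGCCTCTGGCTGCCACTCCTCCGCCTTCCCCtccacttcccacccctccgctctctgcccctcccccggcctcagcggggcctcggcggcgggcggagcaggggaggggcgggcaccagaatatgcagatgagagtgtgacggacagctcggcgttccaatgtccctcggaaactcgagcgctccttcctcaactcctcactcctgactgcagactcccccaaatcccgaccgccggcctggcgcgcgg
Hand2 promoter: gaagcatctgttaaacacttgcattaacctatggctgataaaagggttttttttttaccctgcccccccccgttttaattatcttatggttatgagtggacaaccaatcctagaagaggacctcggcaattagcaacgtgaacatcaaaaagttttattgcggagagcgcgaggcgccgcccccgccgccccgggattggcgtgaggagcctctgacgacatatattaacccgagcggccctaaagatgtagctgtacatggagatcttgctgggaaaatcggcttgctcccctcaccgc
Irx2 peak: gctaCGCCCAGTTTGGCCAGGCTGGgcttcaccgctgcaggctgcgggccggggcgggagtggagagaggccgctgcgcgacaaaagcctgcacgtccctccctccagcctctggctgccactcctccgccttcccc
G and C made up 71.5% of the peak stretch, 69.0% of the Irx2 promoter and 50.3% of the Hand2 promoter, beside a median of 64.0% for the 1949 promoters that overlapped a peak and 52.7% for all 32851 promoters in the table. The T-box letters GGTGTNA, searched on both strands with N as any base, stood in neither the peak stretch nor any of the 4 promoters. The promoters that overlapped a peak held them in 11.3% of cases and all promoters in 10.2%. The longer AGGTGTGA, which contains the shorter motif, was likewise not found in these windows and stood in 1.28% of all promoters.

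All 8 genes had at least 1 summit within 100 kb, where 63.7% of the 21631 protein-coding genes had one. Irx3, Irx4 and Irx5 had 4 summits each, Irx1 had 3, Irx2 and Hand2 had 2 each, and Irx6 and Hand1 had 1 each. The median was 2.5 summits per gene, beside 1 for all protein-coding genes. A count of 4 exceeded that of 82.6% of protein-coding genes and was shared by 1454 of them (6.72%), whereas 41.8% had more than the single summit of Irx6 and Hand1. The 3 summits of Irx1 exceeded the count of 72.2% and were shared by 2248 genes, and the 2 of Irx2 and Hand2 exceeded that of 58.2% and were shared by 3034. A single summit was found at 4748 genes. Longer genes have longer windows and the 8 bodies are short, 3144 to 10034 bp. The windows of the 8 genes spanned 1.65 Mb with 12.8 peaks per Mb, and the merged windows of all protein-coding genes held 5.97 peaks per Mb. Close to the genes the count was near the background. Within 10 kb 3 of the 8 genes had a summit (Irx1, Irx2 and Hand1), beside 29.9% of protein-coding genes, and 1 of 8 had one in the body (Irx2), beside 19.2%. The RefSeq body of Irx2 begins 4390 bp before the gene start used for its promoter sequence, so this summit lies in the body and yet before that start. Of the 21 peaks, 11 lay 10 to 50 kb and 7 lay 50 to 100 kb from the body.

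**Figure D1:**
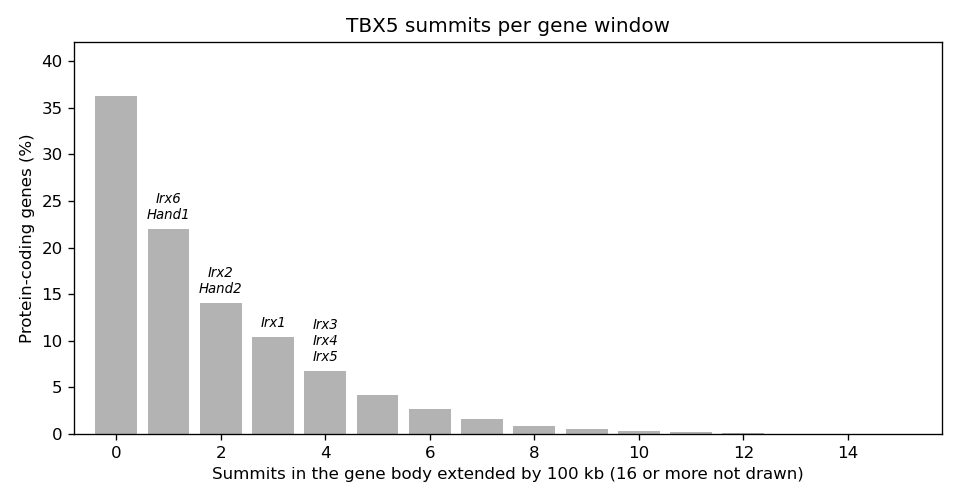
The plot gives the number of TBX5 summits in the gene body extended by 100 kb (horizontal axis) against the percentage of the 21631 protein-coding genes with that number (vertical axis), with the 8 genes written above their bars. Irx3, Irx4 and Irx5 stand at 4 summits, and Irx6 and Hand1 at 1.

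Fold enrichment, the authors' ratio of pooled ChIP fragments to local background at the summit, had a median of 7.25 over the 21 peaks (order-statistic 95% interval 6.17 to 9.11, range 3.49 to 40.4). Over the whole list the median was 5.67 (5.64 to 5.74). At least the median of the list was reached by 16 of the 21 peaks, beside 50.1% of all peaks, and −log10 q of at least 10 by 14, beside 41.5%. In the authors' promoter class, which reaches 2000 bp from a start, were 2 of the 21 peaks, beside 24.6% of the list. The 19 others (75.4% of the list lay outside the class) had a median fold of 7.32 (6.17 to 10.6), beside 6.23 (6.12 to 6.3) for all such peaks. The interval of the 19 thus holds the median of all such peaks. Their median fragment count at the summit was 25 and their median background 2.12, beside 21 and 2.47 for all such peaks. No test was made of these differences. Intervals given below beside a fold are exact 95% Poisson intervals of the fragment count at the summit with the background held fixed, and they cover counting error only.

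**Figure D2:**
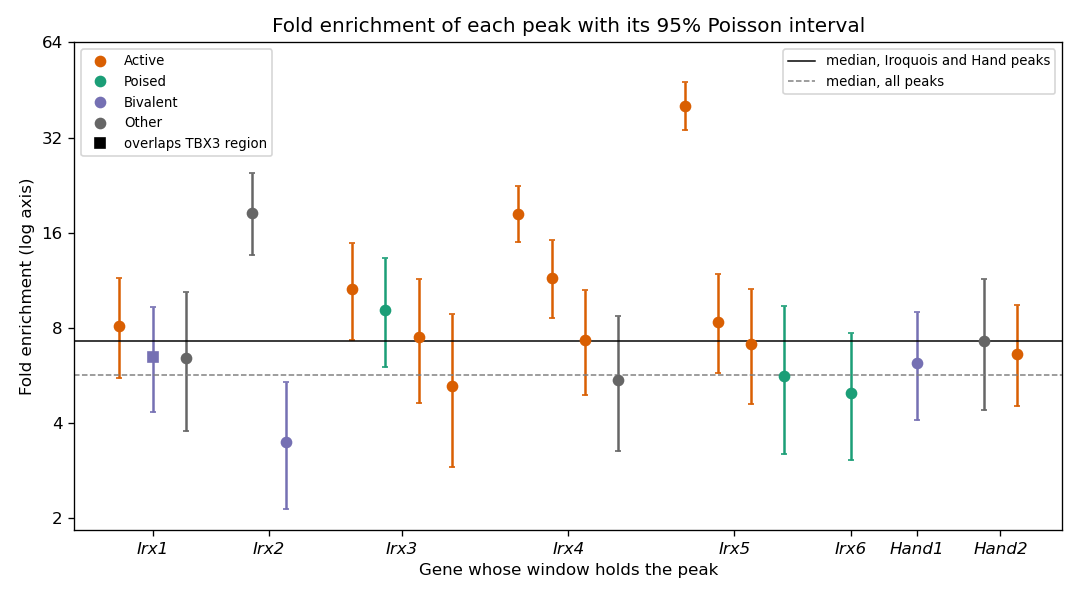
Fold enrichment of each of the 21 peaks (vertical axis, log scale) is drawn by gene, with its 95% Poisson interval, coloured by the authors' chromatin class, and with lines at the medians of 7.25 for these peaks and 5.67 for all peaks. The strongest Irx5 peak stands above the intervals of all the others, and the Irx2 promoter peak is the lowest.

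Irx5 had the strongest peak of the 8 genes. Its summit at 92323659 to 92324160 on chromosome 8 reached 40.4-fold enrichment (33.7 to 48.1) from 125 fragments over a background of 2.12. This was rank 82 of the 12436 peaks, and its interval did not overlap that of any other peak in the set. The peak lay 33843 bp from the Irx5 body and 32167 bp from the start the authors' distance refers to, which matched Crnde, a long non-coding RNA between the peak and Irx5. It overlapped H3K4me1 and H3K27ac. The other 3 Irx5 peaks lay on the same side, 45385, 22511 and 10852 bp from the body, with 7.13-fold (4.58 to 10.6), 8.36-fold (5.77 to 11.8) and 5.64-fold (3.19 to 9.35) enrichment. The last 2 fell inside Crnde. The authors' distances for these 3 peaks, 43709, 20835 and 9176 bp, also matched the Crnde start. The 100 kb on the other side of Irx5 held no summit.

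Irx3, on the same chromosome, had 4 peaks at a distance and no summit within 47865 bp. The strongest lay 71177 bp upstream of its start at 91872688 to 91873111, inside the long non-coding RNA Irx3os, with 10.6-fold enrichment (7.34 to 14.8). The remaining 3 lay downstream of the start, at 47865, 51255 and 82554 bp from the body, with 9.11-fold (6.02 to 13.3), 5.24-fold (2.90 to 8.85) and 7.46-fold (4.64 to 11.4) enrichment. These intervals overlap, and differences among the 4 peaks of Irx3 were not tested. Irx6, the third gene of this cluster, had a single peak at 92723781 to 92723963, 42943 bp from the body, with 4.97-fold enrichment (3.05 to 7.70) from 18 fragments. It overlapped H3K4me1 but not H3K27ac and was in the authors' poised class. With −log10 q of at least 10, the summit nearest to Irx6 lay 339004 bp away, beside Irx5.

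Irx4, the ventricular gene of the other cluster, had 4 peaks on 1 side, all downstream of its start. The strongest, at 73298615 to 73299196 on chromosome 13, had 18.3-fold enrichment (14.9 to 22.4) from 95 fragments and lay 29292 bp from the body. Another at 73336796 to 73337063 had 11.5-fold enrichment (8.59 to 15.2) and lay 67335 bp away. Both overlapped H3K4me1, H3K9ac and H3K27ac, as did the peak nearest to Irx4, 20784 bp away with 7.32-fold enrichment (4.91 to 10.5). The fourth, 69937 bp away with 5.48-fold enrichment (3.27 to 8.70), overlapped none of the 6 marks. The 18.3-fold peak was nearest to the start of Ndufs6, a subunit gene of respiratory complex I, and the 11.5-fold peak to that of Mrpl36, a mitochondrial ribosomal protein gene 5948 bp away. The 5.48-fold peak was nearest to the start of Eprn, 7825 bp away. By distance to a start alone these peaks are counted for other genes than Irx4. Of the 4 peaks, only the 7.32-fold peak matched the Irx4 start.

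Irx2 had a weak peak shortly before its start and a strong one beyond the gene. The promoter peak, at 72628473 to 72628651 on chromosome 13, had 3.49-fold enrichment (2.14 to 5.40) from 18 fragments, with −log10 q of 3.52. Its summit lay 291 bp before the Irx2 start of the sequence shown above and 35 bp from that of Gm20554. The second peak, at 72656704 to 72657002, had 18.5-fold enrichment (13.6 to 24.7) from 45 fragments and lay 22672 bp from the body. At rank 618 of 12436 by fold, it overlapped none of the 6 histone marks. Irx1 had 3 peaks of similar fold, 6.45-fold (4.33 to 9.29) for the peak 500 bp upstream of the start, 8.10-fold (5.55 to 11.5) for one 60091 bp upstream and 6.44-fold (3.78 to 10.4) for one beyond the other end of the gene, 13141 bp away. The 3 intervals overlap.

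The Hand genes had 3 peaks, none above 7.25-fold. Hand1 had a single summit in its 100 kb, at 57827472 to 57827777 on chromosome 11. The summit lay 4555 bp downstream of the Hand1 start and 1121 bp beyond the opposite end of the gene, with 6.17-fold enrichment (4.08 to 8.99) from 25 fragments. Hand2 had one peak on each side. The upstream one, 38449 bp from the body and matched to the start of the divergent long non-coding RNA gene Hand2os1, had 7.25-fold enrichment (4.39 to 11.4) and no mark. The downstream one, 76828 bp away, had 6.62-fold enrichment (4.51 to 9.41) and overlapped H3K4me1, H3K9ac and H3K27ac. The authors' distance for this downstream peak, 54578 bp, matched the start of another gene, Scrg1. The intervals of the 3 Hand peaks overlap one another.

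**Figure D3:**
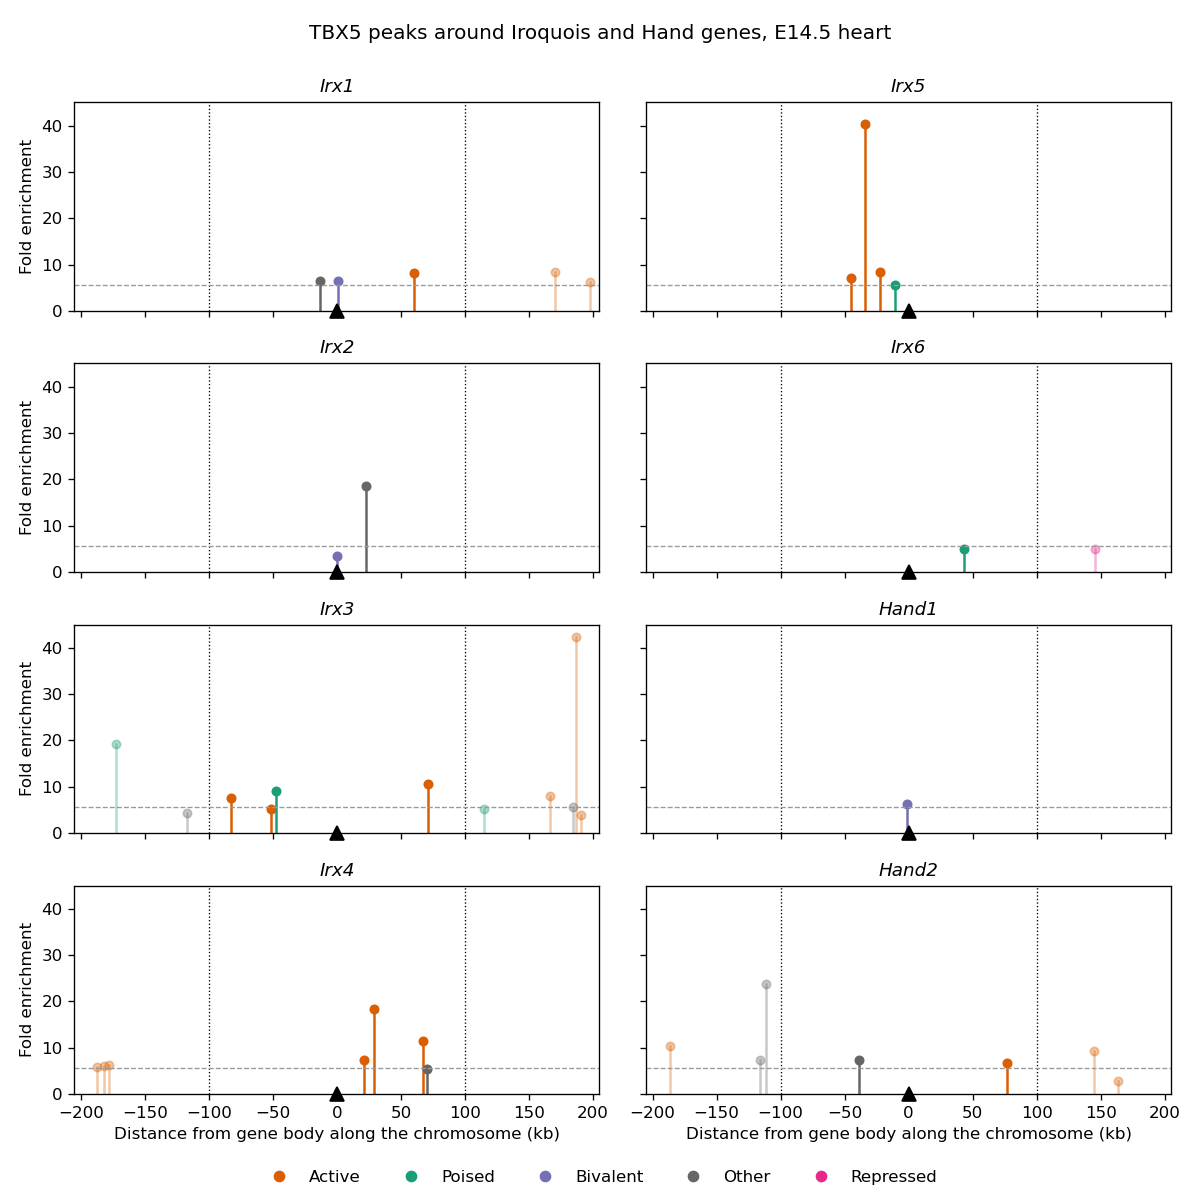
Each panel maps TBX5 peaks by distance from the gene body along the chromosome (horizontal axis, kb, body drawn as a triangle at 0) with fold enrichment (vertical axis), coloured by the authors' class, and pale beyond the dotted lines at 100 kb. The dashed line is the median of all peaks, 5.67. The 40.4-fold peak of Irx5 stands inside the window, and peaks of 42.4-fold near Irx3 and 23.8-fold near Hand2 lie outside.

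The chromatin marks at the peaks were read from the authors' table. The 3 summits within 10 kb, those of Irx1, Irx2 and Hand1, all overlapped H3K4me3, H3K9ac, H3K27ac and H3K27me3, and all 3 were bivalent in the authors' classes. Overlap with separate region files cannot show that these marks lay on the same chromatin or in the same cells. Bivalent peaks made up 0.507% of the whole list (63 peaks), and by fold the 3 ranked 23 (Irx1), 24 (Hand1) and 59 (Irx2) among them. H3K27me3 was found at 1.63% of all peaks and at 1.73% of the 9096 peaks within 10 kb of any protein-coding gene, 39.2% of which overlapped H3K4me3. Of the 18 peaks at 10 to 100 kb, 0 overlapped H3K27me3 (Clopper-Pearson 95% upper bound 18.5%), beside 1.81% of the 2046 peaks at 10 to 100 kb from their nearest protein-coding gene. H3K4me3 was present at 2 of these 18, both near Irx3, beside 14.1% of those 2046, and 11 of 18 were in the active class (61.1%, 35.7 to 82.7), beside 66.1%. The 2 sets are not defined alike, since the 18 were measured from the Iroquois or Hand gene and 2 of them, both in the Irx4 window, lay within 10 kb of Mrpl36, another protein-coding gene. With all 21 peaks together, 11 were active (52.4%, 29.8 to 74.3), beside 73.5% of the list.

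Among the other peaks 3 were in the poised class, beside 14.2% of the list, one each near Irx3, Irx5 and Irx6. Each of the 3 overlapped H3K4me1 and not H3K27ac. A further 4 peaks overlapped none of the 6 marks (19.0%, 5.45 to 41.9), beside 10.1% of the list, and these stood near Irx1, Irx2, Irx4 and Hand2. H3K4me1 was present at 16 of 21 peaks beside 72.3% of the list, H3K27ac at 14 beside 73.5%, H3K9ac at 10 beside 46.0% and H3K4me3 at 5 beside 31.8%. No member peak overlapped H3K9me3, which 0.241% of all peaks did. The sources used here do not give the tissue or stage of the mark regions.

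Overlap with TBX3, a T-box factor of the conduction system that is known as a repressor, was recorded at 1 of the 21 peaks (4.76%, 0.12 to 23.8), beside 27% of the list. That peak was the promoter peak of Irx1. The sources used here do not give the tissue or stage of the TBX3 regions. Of the 18 peaks at 10 to 100 kb, 0 overlapped a TBX3 region (upper bound 18.5%), beside 22.4% of the 2046 peaks at 10 to 100 kb from their nearest protein-coding gene. The strong peaks of Irx5, Irx2 and Irx4 were among those without TBX3 overlap. These intervals treat peaks as independent, which neighbouring peaks are not.

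**Figure D4:**
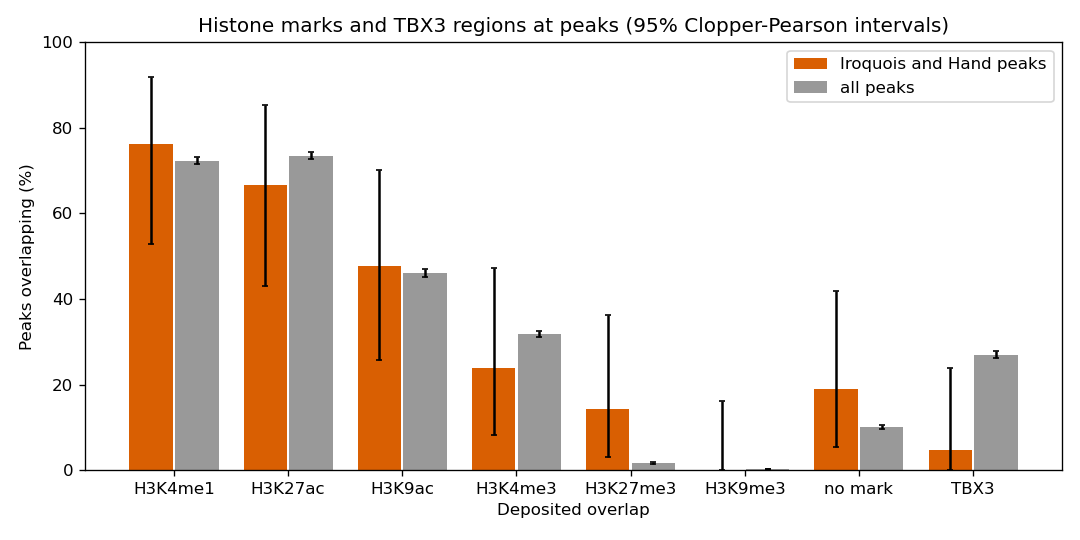
Bars give the percentage of peaks (vertical axis) that overlap each histone mark or a TBX3 region (horizontal axis), for the 21 Iroquois and Hand peaks and for all 12436 peaks, with 95% Clopper-Pearson intervals. H3K27me3 stands at 14.3% beside 1.63%, and TBX3 at 4.76% beside 27%.

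The 100 kb limit cut through stretches with further peaks. Just inside it the farthest summit lay 82554 bp from Irx3, and just outside lay a 23.8-fold peak (18.7 to 30.0) 111216 bp from Hand2 in the class named Other, followed by a 5.26-fold peak 115134 bp from Irx3. Between Irx3 and Irx5, at 91987831 to 91988379 on chromosome 8, a peak of 42.4-fold enrichment (37.3 to 47.9) lay 186455 bp from Irx3 and 369687 bp from Irx5. On the other side of Irx3 the gene Fto held peaks of 19.2-fold (14.7 to 24.7) and 15.4-fold (11.4 to 20.4), 172540 and 244861 bp from Irx3. Fto introns are known to hold regulatory sequence that contacts Irx3 in the mouse. Between the outer limits of the Irx3 and Irx6 windows lay 15 peaks in 1.08 Mb, 9 of them already counted in the windows. Among the 15 peaks 0 had TBX3 overlap, beside 27% of the list. The Irx1, Irx2 and Irx4 cluster held 21 peaks in 1.51 Mb, 12 of them outside the windows and the strongest of those 18.9-fold (14.9 to 23.7), 204727 bp from Irx2. There 4 of the 21 peaks overlapped TBX3 regions, and the difference between the clusters was not tested. Hand1, Irx2 and Irx5 had no further summit up to 200 kb.

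Genes that work with the Iroquois and Hand factors were counted by the same rule, from lists chosen with earlier results of these data known. Of 10 dimer partners and inhibitors of HAND proteins, 8 had a summit within 100 kb and 5 within 10 kb. The strongest was a 23.8-fold peak (20.2 to 27.7) 97683 bp from Tcf12, which encodes an E protein that pairs with HAND factors. Tcf4, another E protein gene, held a 20.7-fold peak in its body. The peaks counted for Tcf3 (8.07-fold) and Twist2 (7.11-fold) lay 92876 and 94228 bp away. Like the 23.8-fold peak of Tcf12 they stood near the edge of the window. Neither Tcf3 nor Twist2 had a summit within 10 kb. Id1 and Twist1 had none. All 9 genes of partner factors in the cardiac programme had a summit within 100 kb, 8 of them within 10 kb, led by Tbx5 with 19.1-fold in the body. Next were peaks of 19.1-fold 60276 bp from Hey1, 17.0-fold 47701 bp from Nkx2-5 and 16.1-fold 53015 bp from Mef2c. Of the genes listed as downstream of IRX or HAND factors in heart 11 are reported here, and these 11 had one as well, 10 of them within 10 kb. Highest there were peaks 9458 bp from the connexin gene Gja5 (56.9-fold, 50.2 to 64.4), 4725 bp from the growth factor gene Bmp10 (33.8-fold, 27.8 to 40.7) and inside the potassium channel gene Kcnd2 (20.9-fold). The neighbouring myosin genes Myh6 and Myh7 share an 18.3-fold peak (14.6 to 22.7), 28882 and 2273 bp away. Of 5 upstream signals, 4 had a summit and Edn1 had none. Ednra held a 6.73-fold peak in its body, and peaks of 6.85-fold, 4.42-fold and 3.97-fold lay 40977 bp from Bmp2, 7667 bp from Bmp4 and 76151 bp from Shh. Of 3 other TALE genes Tgif2 had a summit, at 8.86-fold, and Tgif1 and Mkx had none. Shares of these lists stand beside 63.7% and 29.9% of all protein-coding genes for 100 kb and 10 kb.

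The GATA and FOG genes with Nkx2-5, also cardiac transcription factor genes, were counted by the same rule for comparison. The 8 Iroquois and Hand genes had a median of 2.5 summits and 3 genes with a summit within 10 kb, and the 6 genes of the GATA group had a median of 7 summits and 5 such genes. The windows differed in length, 1.65 Mb with 12.8 peaks per Mb beside 1.83 Mb with 19.7 for the GATA group. Zfpm1 of the GATA group had no summit within 100 kb, whereas all 8 Iroquois and Hand genes had one. TBX3 overlap was 1 of 21 for the Iroquois and Hand peaks and 12 of 36 for the GATA group. No test of these differences was made. All 5 cardiomyocyte marker genes had a summit within 10 kb, beside 1 of 3 liver, 1 of 3 blood and 1 of 2 endothelial markers and 29.9% of protein-coding genes. Within 100 kb the counts were 5 of 5, 2 of 3, 2 of 3 and 1 of 2, beside 63.7%. The endothelial gene Pecam1 had a 27.3-fold peak (22.4 to 33.0), above the strongest peak of each cardiomyocyte marker but Myl2 (62.2-fold). These few genes do not establish the tissue, since binding is not expression, and a gene without a summit had none past the authors' threshold at this depth.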

How the data were processed

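TBX5 ChIP-seq of hearts was deposited as 1 peak list from 2 pooled ChIP samples and 1 input. The submitters' processing notes name mm10, Bowtie2, SAMtools, MACS2 and ChIPseeker, without versions or settings. The fold enrichment is the authors' deposited ratio of pooled pileup to background, and the −log10 p and −log10 q are their deposited values. All 12436 peaks were checked to have the same position, fold and summit in the narrowPeak list and the annotated table, and the deposited score was not used. Distances to starts, promoter class, chromatin class and overlaps with 6 histone marks and TBX3 are the authors' columns, per the file headers, which state no overlap rules. A mark with 2 region files counted if either had it.

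Depth per sample is unknown here. The fragment count (pileup) at each summit and its background were solved from the fold, (pileup + 1)/(background + 1), and the Poisson tail, with a largest misfit of 0.000242 in −log10 p. On 500 peaks simulated with these same formulas 100% of pileups were recovered, which checks the solving step only. Gene bodies came from RefSeq (GRCm38.p6), for 21631 protein-coding genes of the autosomes and X. The start behind each distance was matched to RefSeq within 50 bp. Members and lists were chosen with earlier results of these data known, and the text names every member and peak and up to 4 genes of highest fold per list, with a tie for the last place named in full. Of the list of downstream genes, 1 gene is not reported here. Peaks are not replicates, so no test was made; shares have exact 95% Clopper-Pearson intervals and folds exact 95% Poisson intervals. Alternatives were windows of 0, 10, 50, 200 and 500 kb, stricter peaks, peak edges for summits and both mark files. The tools were Python 3.11.15 with scipy 1.17.1, pandas 2.3.3, matplotlib 3.10.9 and numpy 2.4.6.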

Additional observations from a re-analysis of the deposited data

How the results depend on the processing

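Of 67 alternative values, 48 stayed within the interval of the main value, or within 1.5 times a main count, and 19 did not. With gene bodies alone 1 gene had 1 peak, with a fold of 3.49, a TBX3 share of 0% and shares of 100% for H3K27me3, H3K27ac and promoters and 0% for the active classes. At 10 kb 3 genes had 3 peaks, with TBX3 at 33.3%, H3K27me3 and H3K27ac at 100%, active classes at 0% and promoters at 66.7%. The number of peaks was 39 at 200 kb and 60 at 500 kb, a window chosen after seeing the data. The intervals of shares of 21 peaks are wide, and values inside them also moved. TBX3 overlap, 4.76% in the main count, was 10.3% at 200 kb and 13.3% at 500 kb, and 7.14% at 50 kb. H3K27me3, 14.3% in the main count, was 21.4% at 50 kb, 10.3% at 200 kb and 6.67% at 500 kb. Promoters, 9.52% in the main count, were 14.3% at 50 kb and 6.25% among peaks at or above the list's median fold. H3K27ac stood at 85.7% with −log10 q of at least 10. The median fold of the 21 peaks was 10.1 as pileup over background without the added 1, also chosen after seeing the data. With −log10 q of at least 10 Irx6 had no summit, and 7 of 8 genes kept one. The share of all protein-coding genes at that cut-off is not given here. The active classes held 71.4% of the 14 peaks that passed it, beside 52.4% in the main count. Shares of H3K27ac and of the active classes over all peaks at that cut-off are not given here. The 85.7% and 71.4% thus cannot be set against the list. The count of bivalent peaks near the genes rests on 3 peaks. No paired analysis was possible because the peaks were called on pooled samples, and no replicate could be left out for the same reason. The assignment by the authors' gene names was not run, since the table names no gene, and motifs in whole peaks were not searched, since no genome was used here.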
